A study of Mus musculus with 8 samples.

Results

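Transcripts of 9 lysosomal genes were followed in the platelets of TNFdARE and control mice: the membrane proteins Lamp1, Lamp2 and Laptm4a, the small GTPase Rab7, the hydrolases Ctsa, Ctsb and Ctsd, and the precursors Psap and Grn. The members were chosen by gene symbol, and each of the 9 was found in 1 row of the 43548 genes of the table. Washed platelets were taken at baseline from animals of 8 to 12 weeks, 4 of them TNFdARE and 4 their control littermates, and each group held 2 females and 2 males by the labels. TNFdARE mice carry a germline deletion of the AU-rich elements of Tnf, so that every cell able to make TNF-α makes more of it, and they had been backcrossed to C57BL/6J, whose name the control libraries bear in short form (B6). The labels give each mouse only as positive or negative for the TNFdARE allele, and other text fields of theirs speak of 3 mice per group or of older males. RNA was sequenced once per mouse, so the spread reported here is between mice.

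Lysosomes are acidic organelles that receive cargo from endosomes, phagosomes and autophagosomes and break it down. Their limiting membrane is lined by heavily glycosylated LAMP proteins, Rab7 marks late endosomes and recruits the machinery for their fusion with lysosomes, and cathepsins and other hydrolases in the lumen digest proteins, lipids and sugars. Platelets inherit lysosomes, and lysosome-related dense granules, from megakaryocytes, and they release lysosomal hydrolases on strong stimulation. Since platelets have no nucleus, the RNA measured in them is that packed by the megakaryocyte and still present. The study asked how chronic TNF-α affects autophagy in platelets, whose last step is carried out by lysosomes.

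The libraries differed widely in how many genes they detected. Between 1479 and 2742 genes were above 0 in the control libraries, and 818 in TNFdARE mouse 1, 3187 in mouse 2, 4917 in mouse 3 and 1225 in mouse 4. The values were read as FPKM, a level scaled to transcript length and to the fragments mapped in the library, and the read depth is unknown. A single gene, AY036118, took 33.7% to 51.8% of the summed FPKM in control mice, 67.7% in TNFdARE mouse 1 and 37.0% to 47.5% in the other TNFdARE mice. Hprt, a gene of nearly all cells, had no value above 0 in any of the 8 libraries, and Gapdh was at 0 in 5 of them. Zeros in the table may therefore be failed estimates and are not read as absence. Tnf itself was listed at 0 in all 8 libraries and cannot check the genotype labels. All 19 platelet and megakaryocyte markers examined were above 0 in 6 of the libraries, 16 were in TNFdARE mouse 1 and 18 in TNFdARE mouse 4.

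Ctsd had the highest level of the 9 genes, with a mean of 19.5 ± 7.52 FPKM (SD, n = 8 mice), which placed it 200th of the 43548 genes by mean. Lamp1 followed with a mean of 11.8 FPKM over the 8 listed values and Psap with 8.08 ± 2.14 FPKM (SD, n = 8). The next members in the order of mean FPKM were Lamp2 (3.26), Laptm4a (2.84), Grn (2.46), Rab7 (1.45), Ctsa (0.708) and Ctsb (0.370). Neighbours in this order were compared within the mice that listed both above 0. Ctsd was above Lamp1 in 6 of 7 such mice, Lamp1 above Psap in 6 of 7 and Psap above Lamp2 in 7 of 7. From Lamp2 downward the order was not kept from mouse to mouse: Lamp2 exceeded Laptm4a in 4 of 6 mice, Laptm4a exceeded Grn in 2 of 4, Grn exceeded Rab7 in 2 of 4, Rab7 exceeded Ctsa in 1 of 2 and Ctsa exceeded Ctsb in 2 of 3. Ctsd, Lamp1 and Psap together held 68.9% to 100% of the summed FPKM of the 9 members in each library. The 2 members above 0 in every library were Ctsd and Psap, and of all genes tested 26.1% were above 0 in every library.

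**Figure D1:**
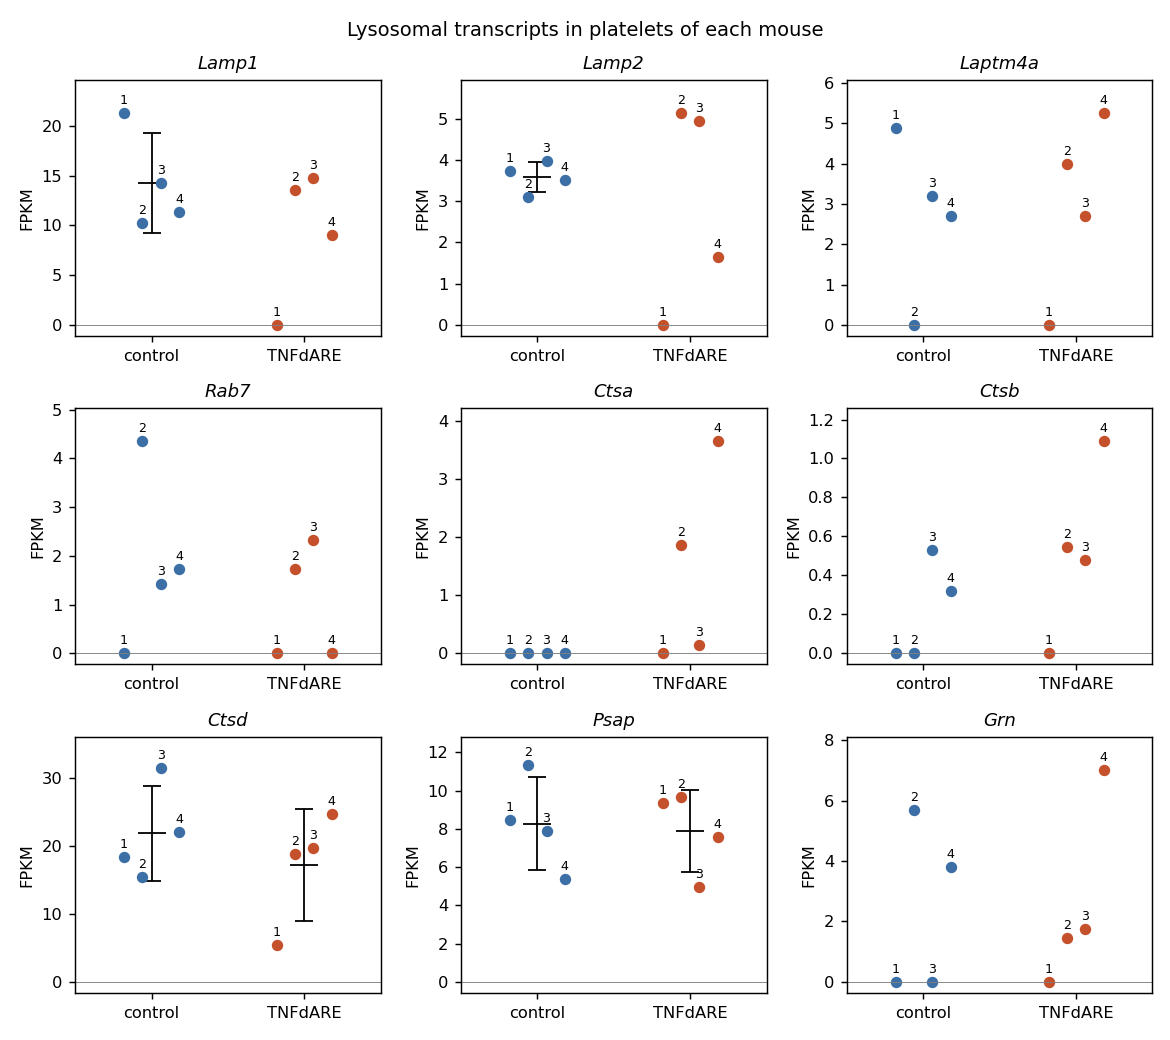
FPKM of each of the 9 genes in control (blue) and TNFdARE (orange) mice. Points are mice, numbered as in the text. Bars give the mean and SD of 4 mice and are drawn only where all 4 values are above 0. The groups overlapped for each gene, and TNFdARE mouse 1 was listed at 0 for every gene but Ctsd and Psap.

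Lamp1 (ENSMUSG00000031447, GRCm38 chromosome 8, 13159161 to 13175338, plus strand) encodes the most abundant glycoprotein of the lysosomal membrane in many cells, which also appears on the surface of activated platelets. Its level was 21.3, 10.2, 14.2 and 11.3 FPKM in control mice 1 to 4 (mean 14.3 ± 5.00, SD, n = 4) and 0, 13.6, 14.8 and 9.08 FPKM in TNFdARE mice 1 to 4. TNFdARE mice 2 and 3 lay within the control range, TNFdARE mouse 4 lay below the lowest control and TNFdARE mouse 1 was listed at 0, while control mouse 1 was the highest of the 8. Among detected genes Lamp1 stood high in every library that listed it, from percentile 69.6 in TNFdARE mouse 4 to percentile 95.1 in TNFdARE mouse 3. The log2 fold change was -1.09 (standard error 0.83, 95% interval -2.88 to 0.71, adjusted p = 0.86, limma), and the two-sided exact permutation p was 0.34. Without TNFdARE mouse 1 the log2 fold change was -0.15.

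Lamp2 (ENSMUSG00000016534, chromosome X, 38401357 to 38456454, minus strand) encodes the second major LAMP, whose splice form LAMP2A is the receptor of chaperone-mediated autophagy. Control mice 1 to 4 had 3.75, 3.10, 3.98 and 3.53 FPKM (mean 3.59 ± 0.373, SD, n = 4), the smallest SD relative to the mean among the members detected in every control mouse. TNFdARE mice 1 to 4 had 0, 5.15, 4.96 and 1.65 FPKM. TNFdARE mice 2 and 3 were above every control mouse and TNFdARE mouse 4 was below every control mouse, while TNFdARE mouse 1 was listed at 0. The log2 fold change of -0.54 (95% interval -2.11 to 1.02, adjusted p = 0.88, limma) became 0.0063 without TNFdARE mouse 1 and 0.40 without TNFdARE mice 1 and 4. The annotation holds 3 coding transcripts of Lamp2, and the deposited value does not separate them.

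Laptm4a (ENSMUSG00000020585, chromosome 12, 8921664 to 8938742, plus strand) encodes a membrane protein with several transmembrane segments found in late endosomes and lysosomes. It was listed at 4.89, 0, 3.20 and 2.70 FPKM in control mice 1 to 4 and at 0, 3.99, 2.69 and 5.27 FPKM in TNFdARE mice 1 to 4. Each group thus held 1 listed 0 and 3 values between 2.69 and 5.27 FPKM. Its log2 fold change of 0.08 had a standard error of 0.82 and an adjusted p of 0.99 (limma), and it was -0.46 without control mouse 2 and 0.66 without TNFdARE mouse 1, the mice with the listed zeros.

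Rab7 (ENSMUSG00000079477, chromosome 6, 87999106 to 88045270, minus strand) encodes the GTPase that directs late endosomes and autophagosomes to lysosomes. Its values were 0, 4.36, 1.43 and 1.73 FPKM in control mice 1 to 4 and 0, 1.74, 2.32 and 0 FPKM in TNFdARE mice 1 to 4. The 3 libraries that listed Rab7 at 0 were those with the fewest genes above 0 in the series. In the other 5 libraries Rab7 lay between 1.43 and 4.36 FPKM, with control mouse 2 the highest and TNFdARE mice 2 and 3 between the other controls and control mouse 2. For Rab7 the log2 fold change was -0.49 (95% interval -2.15 to 1.17, adjusted p = 0.89, limma). It was -0.11 without control mouse 2, -0.23 without TNFdARE mouse 1 or mouse 4, and 0.30 without both of these TNFdARE mice. A stretch of 622 bases of the Rab7 transcript is 98.4% identical to the processed pseudogene Rab7-ps1, so the Rab7 values are uncertain where fragments could be assigned to either copy. Its exons also overlap Gm5577, an antisense gene with a mean of 0.473 FPKM that shares 211 identical bases.

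Ctsd (ENSMUSG00000007891, chromosome 7, 142375911 to 142388038, minus strand) encodes cathepsin D, the main aspartic protease of lysosomes. The values were 18.4, 15.4, 31.6 and 22.1 FPKM in control mice 1 to 4 (mean 21.9 ± 7.01, SD, n = 4) and 5.43, 18.8, 19.7 and 24.7 FPKM in TNFdARE mice 1 to 4 (mean 17.2 ± 8.25, SD, n = 4). TNFdARE mouse 1 was the lowest of all 8, and the other 3 TNFdARE mice lay within the control range. For Ctsd the log2 fold change came to -0.45 (95% interval -1.70 to 0.79, adjusted p = 0.87, limma, and exact permutation p = 0.51). It was -0.01 without TNFdARE mouse 1, where the remaining TNFdARE mice averaged 21.1 ± 3.16 FPKM (SD, n = 3). Ctsd shares 671 identical bases with Gm49369, an annotated gene on the same strand whose exons overlap it and which has no row in the table.

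The other 2 hydrolases had the lowest mean levels of the 9 members. Ctsa (ENSMUSG00000017760, chromosome 2, 164832873 to 164841032, plus strand) encodes cathepsin A, a carboxypeptidase that also protects lysosomal β-galactosidase and neuraminidase. The 4 control libraries listed it at 0, and TNFdARE mice 1 to 4 had 0, 1.86, 0.144 and 3.66 FPKM, so the values above 0 were in TNFdARE mice, the higher pair in the 2 females (exact permutation p = 0.14). Ctsb (ENSMUSG00000021939, chromosome 14, 63122462 to 63145923, plus strand), the cysteine protease cathepsin B, was listed at 0, 0, 0.532 and 0.320 FPKM in control mice and at 0, 0.544, 0.477 and 1.09 FPKM in TNFdARE mice (exact permutation p = 0.29). Ctsa and Ctsb were the 2 members with a mean FPKM under 1 and were left out of the fit across genes. With no filter on low values their log2 fold changes were 0.98 (95% interval -0.23 to 2.20, adjusted p = 0.61, limma) and 0.31 (-0.58 to 1.20, adjusted p = 0.68). The exons of both overlap genes on the opposite strand, Pltp and Neurl2 for Ctsa and Fdft1 for Ctsb. Pltp and Neurl2 were listed at 0 throughout and Fdft1 had a mean of 0.208 FPKM. Lamp1 and Grn overlap opposite-strand genes as well, Grtp1 (mean 0.0467 FPKM) and Fam171a2 (mean 0.0151 FPKM). Whether the libraries kept the strand is not given in the sources used here, and without it reads of such partners cannot be told apart.

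Psap (ENSMUSG00000004207, chromosome 10, 60277627 to 60302597, plus strand) encodes prosaposin, which is cut into the saposins that help enzymes reach sphingolipids. It was the steadiest member detected in all libraries, with 8.48, 11.3, 7.89 and 5.39 FPKM in control mice 1 to 4 (mean 8.27 ± 2.44, SD, n = 4) and 9.34, 9.67, 4.97 and 7.59 FPKM in TNFdARE mice 1 to 4 (mean 7.89 ± 2.15, SD, n = 4). TNFdARE mouse 1, listed at 0 or lowest for the other members, had the third highest Psap level of the 8. Its log2 fold change of -0.06 had a 95% interval of -1.25 to 1.14 (standard error 0.55, adjusted p = 0.99, limma), and it was 0.12 without TNFdARE mouse 3 and 0.09 without control mouse 2. Grn (ENSMUSG00000034708, chromosome 11, 102430315 to 102437048, plus strand) encodes progranulin, a secreted protein delivered to lysosomes by sortilin or together with prosaposin and cut there into granulins. It was listed at 0, 5.69, 0 and 3.80 FPKM in control mice 1 to 4 and at 0, 1.45, 1.75 and 7.03 FPKM in TNFdARE mice 1 to 4. The range of the detected TNFdARE values enclosed that of the detected control values, and the 95% interval of the log2 fold change of 0.19 reached from -1.74 to 2.12 (adjusted p = 0.98, limma). This value was -0.33 without TNFdARE mouse 4, -0.23 without control mouse 1 or mouse 3, and 0.69 without control mouse 2.

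Across the genotypes, no member differed beyond the spread between mice. Of the 7 members tested 0 had an adjusted p under 0.05, 0 had an unadjusted p under 0.05 and 0 had groups that did not overlap, by limma on log2(FPKM + 1). Over all 1534 genes tested, these calls were made for 0%, 4.5% (1.76% higher and 2.74% lower in TNFdARE mice) and 3.32%. The smallest unadjusted p of a member was 0.21, for Lamp1. Log2 fold changes were below 0 for 5 of the 7 members and for 63% of all genes tested, with medians of -0.45 and -0.30. The split depended on the scaling and on sample weights. After quantile normalization 3 of the 7 were below 0, and 4 of the 7 after median-of-ratios scaling or scaling to platelet markers. Rescaling without the most abundant gene left 5 of the 7 below 0, and sample weights left 3. The widths of the 95% intervals had a median of 3.32 on the log2 scale for the members and 3.46 for all genes, so differences of several-fold were not detectable for most of these transcripts.

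**Figure D2:**
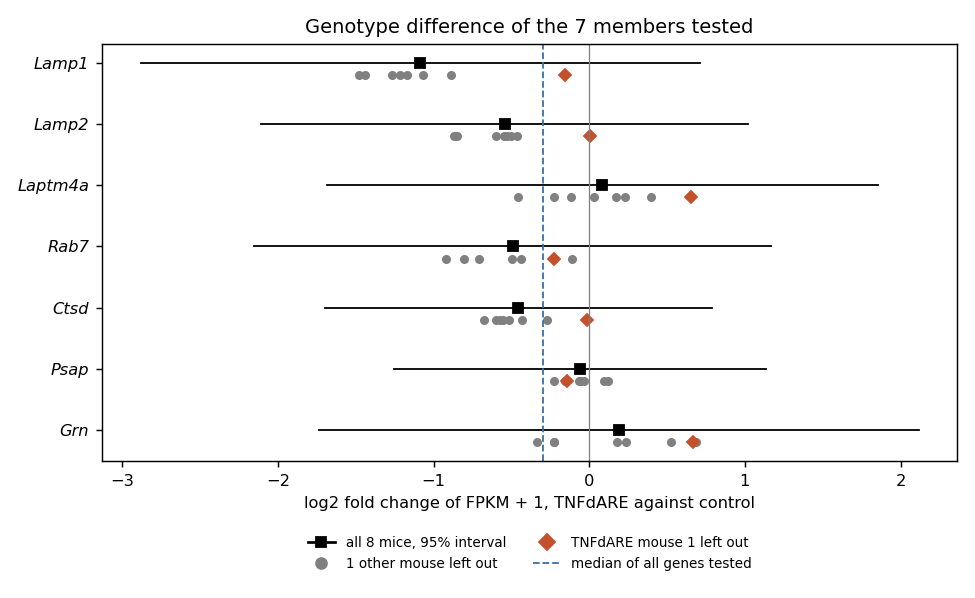
Log2 fold change of FPKM + 1 (TNFdARE against control) for the 7 genes tested. Squares and lines are the estimate and 95% interval from 8 mice, grey points the estimate with 1 other mouse left out, and orange diamonds the estimate without TNFdARE mouse 1. Every interval spans 0, and without TNFdARE mouse 1 Lamp1 moves from -1.09 to -0.15.

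For 4 of the 5 members below 0 the log2 fold change was nearer to 0 or past it without TNFdARE mouse 1, and Psap was the exception. This library was listed at 0 for 5 of the 7 members tested, as it was for 58.3% of all genes tested. Control mice 1 to 4 had 5, 6, 7 and 8 of the 9 members above 0, whereas TNFdARE mouse 1 had 2, mice 2 and 3 had 9 and mouse 4 had 8. The lowest decile of the positive values among tested genes ended at 1.66 FPKM in TNFdARE mouse 1, above the 0.659 to 1.33 FPKM of the other libraries. Without this mouse 4 of 7 members were below 0 with a median log2 fold change of -0.01, where all genes had -0.16, and 0 members had an unadjusted p under 0.05. Without TNFdARE mice 1 and 4, a setting chosen after seeing the data, 2 of 7 were below 0 and the median was 0.13, against 0.02 for all genes. The part of library quality in these shifts was not tested.

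The summed level of the 9 transcripts was lowest in TNFdARE mouse 1 as well. It was 56.9, 50.2, 62.8 and 50.9 FPKM in control mice 1 to 4 (mean 55.2 ± 5.91, SD, n = 4) and 14.8, 56.8, 51.8 and 60.1 FPKM in TNFdARE mice 1 to 4 (mean 45.9 ± 21.0, SD, n = 4, a coefficient of variation of 45.8%). The 7 mice other than TNFdARE mouse 1 averaged 55.6 ± 4.85 FPKM (SD, n = 7), a coefficient of variation of 8.72%, although their libraries held between 1225 and 4917 genes above 0. TNFdARE mouse 4, with 1225 genes, had 60.1 FPKM and 8 members above 0, more than control mouse 1 with 1479 genes and 5 members. The difference between groups on log2(sum + 1) was -0.43, and 0.03 without TNFdARE mouse 1.

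**Figure D3:**
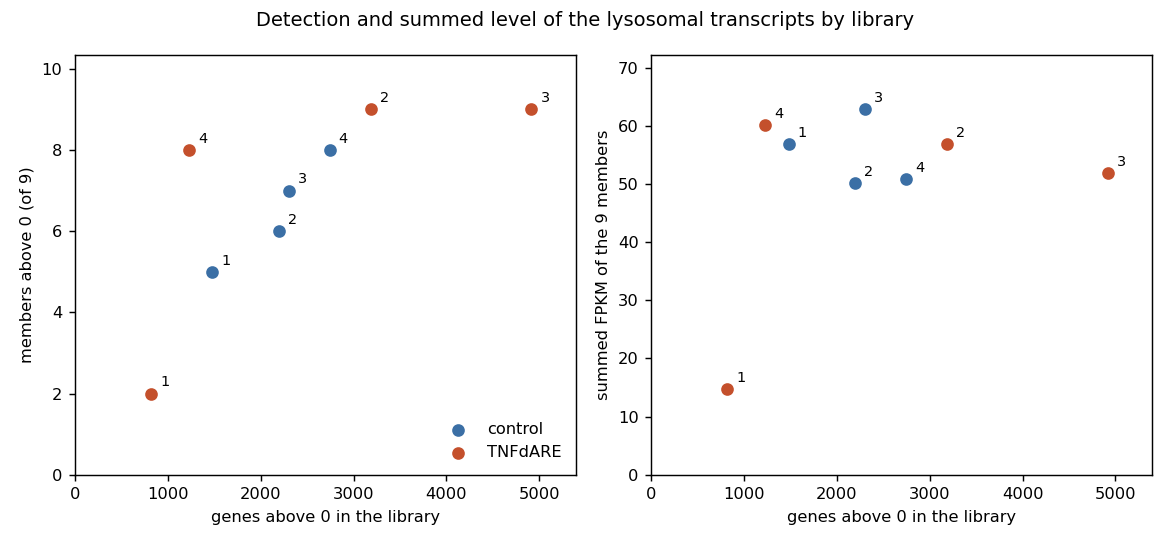
Number of the 9 genes above 0 (left) and their summed FPKM (right) against the number of genes above 0 in each library. Points are mice, blue for control and orange for TNFdARE, numbered as in the text. Both measures are lowest in TNFdARE mouse 1 (818 genes, 2 members, 14.8 FPKM), and the summed FPKM of the other libraries lies between 50.2 and 62.8.

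Lysosomal genes are known as a group induced by TFEB and related factors through a motif built on the letters CACGTG, so the promoters of the members were read for it. RefSeq promoter sequences (GRCm38.p6, 250 bases before to 50 after a gene's start) were at hand for 8 of the 9 members, in 11 windows. The palindrome CACGTG, which reads the same on both strands, lay in 1 window each of Lamp1, Ctsd and Ctsa, and in 7.15% of all 32851 windows. Its longer form TCACGTGA, which contains it, lay in the Ctsd window and the Ctsa window and in 0.974% of all windows. The stretches that hold these letters are shown 5′ to 3′ on the strand of the gene, with each CACGTG in capitals, at chr8:13159096-13159155 (plus strand), chr7:142387908-142387937 (minus strand) and chr2:164833757-164833786 (plus strand).
Lamp1: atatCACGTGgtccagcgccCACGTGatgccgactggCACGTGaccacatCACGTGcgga
Ctsd: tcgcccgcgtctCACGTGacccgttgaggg
Ctsa: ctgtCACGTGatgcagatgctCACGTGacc
The Lamp1 stretch holds all 4 copies of its window within 60 bases that end 6 bases before the start, and the Ctsa stretch holds both of its copies. The Ctsd stretch holds 1 of the 2 copies in its window, the one that is part of TCACGTGA, and the other copy is not shown. Against the RefSeq start of its window, the Ctsd stretch spans bases -110 to -81 and the Ctsa stretch -16 to 13. Both stretches lie inside the genes by the gene coordinates given above, whose starts differ from these RefSeq starts. The other Ctsa window held no copy. Among these 3 genes were the 2 members with the highest mean level (Ctsd and Lamp1) and 1 listed at 0 in every control mouse (Ctsa). Psap, the third by level, and Lamp2, Laptm4a, Rab7 and Grn had no copy in their windows, which says only that these letters are not there.

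Ctsd and Lamp1 followed each other across the 8 mice mainly through TNFdARE mouse 1. The Pearson correlation of their log2(FPKM + 1) was 0.87 over 8 mice and -0.09 over the 7 others, and that of Lamp1 and Lamp2 was 0.94 and 0.61. The tested genes most like Ctsd over the 8 mice were Gm26951 (r = 0.97), Gm15989 (0.97) and Nrgn (0.97), the last a calmodulin-binding protein abundant in platelets. Without TNFdARE mouse 1 these were 0.84, 0.81 and 0.81. The genes most like Lamp1 were Alox5ap (0.98), which encodes the activating protein of 5-lipoxygenase, Gm12744 (0.98) and the aldehyde dehydrogenase gene Aldh2 (0.97), and without TNFdARE mouse 1 their r was 0.72, 0.57 and 0.45. All of these values share the same 8 libraries and their differences in detection.

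Other lysosomal genes were compared in the same way. Hand-written lists of membrane proteins, proteases, other hydrolases, precursors and sorting receptors, V-ATPase subunits, trafficking and fusion factors, dense granule biogenesis, regulators and cathepsin inhibitors named 191 genes. Rows were found for 189 of them, values above 0 for 106, and 29, the 7 members included, had a mean FPKM of at least 1. By limma 0 of the 29 had an adjusted p under 0.05 and 0 an unadjusted p under 0.05. The log2 fold change was below 0 for 24 of the 29 (82.8%), against 63% of all genes tested, and the median was -0.54 against -0.30. The filter decided part of these signs, since a gene could pass through 1 group alone. Ap1m1 and Lmbrd1 passed through control mice (means 5.56 and 2.37 FPKM, with 0 in TNFdARE mice). So did Ostm1 and Gnptg (means 1.90 and 1.51 FPKM, against 0.436 and 0.509). Lamtor1, Ppt1 and Ctss passed through TNFdARE mice (means 3.49, 2.14 and 1.77 FPKM, against 0.399, 0.650 and 0.651). Further such genes of the V-ATPase and of the trafficking list are given below. With no filter on low values the median of all genes was 0.0088, and that of the membrane proteins went from -0.81 to -0.12. With sample weights 15 of the 29 were below 0 (51.7%, all genes 50.8%), and after quantile normalization 20 were (69.0%, all genes 53.4%). Of the 29 genes, 79.3% were listed at 0 in TNFdARE mouse 1. Without TNFdARE mouse 1, 19 of 28 were below 0 (67.9%, all genes 58.3%), with a median of -0.19 against -0.16 for all genes. Without TNFdARE mice 1 and 4, 14 of 29 were (48.3%, all genes 48.6%), with a median of 0.0068 against 0.02.

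Among the membrane proteins, 6 of 28 were tested, of which Ostm1 and Lmbrd1 passed the filter through the control mice alone. Of the 6, 5 were below 0, against 3 with sample weights and 4 after quantile normalization. Laptm5, a lysosomal membrane protein of blood cells, was the highest of these genes, with 32.1, 30.5, 34.5 and 26.5 FPKM in control mice 1 to 4 and 8.05, 21.3, 31.0 and 23.7 FPKM in TNFdARE mice 1 to 4. A single TNFdARE mouse (mouse 3) was inside the control range (log2 fold change -0.67, adjusted p = 0.86, limma, and exact permutation p = 0.086). Among the proteases 3 of 17 were tested, and Ctsz (cathepsin Z) had 0, 4.58, 14.9 and 3.65 FPKM in control mice and 0, 5.22, 5.53 and 5.12 FPKM in TNFdARE mice. Of 36 other hydrolases 3 were tested. Hexa, a subunit of β-hexosaminidase, a classical marker of platelet lysosome release, had 5.78, 2.23, 2.21 and 7.58 FPKM in control mice and 0, 2.12, 2.90 and 2.83 FPKM in TNFdARE mice, and Ppt2, a thioesterase, was above 0 in 4 of the libraries. Sort1, the sortilin that carries Grn and Psap to lysosomes, had 11.9, 3.17, 2.90 and 1.77 FPKM in control mice and 0, 3.35, 2.68 and 0 FPKM in TNFdARE mice (log2 fold change -1.30, adjusted p = 0.86, limma). The precursors and sorting receptors had 5 of 16 tested and 4 below 0, all 5 below 0 with sample weights, and 2 of the 4 tested after median-of-ratios scaling. Ap1m1 and Gnptg of this list passed the filter through the control mice alone.

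The V-ATPase acidifies the lysosome. Of its 17 listed subunits 5 were tested, and all 5 log2 fold changes were below 0, from -1.49 to -0.14. With sample weights 2 of the 5 were below 0, and 4 after quantile normalization. Atp6v0a2 and Atp6ap1 passed the filter through the control mice alone (means 3.00 and 2.52 FPKM, against 0.218 and 0.642 in TNFdARE mice). The list median of -0.78 was -0.12 with no filter on low values. Atp6v1f spanned 5.43 to 46.2 FPKM in control mice and 3.73 to 47.0 FPKM in TNFdARE mice, and Atp6v0e 4.00 to 34.4 and 0 to 36.4 FPKM. Atp6v0a2, named after its values were seen, was the 1 gene of the 29 (3.45%) whose groups did not overlap, close to the 3.32% of all genes tested, and 2 of its TNFdARE values were listed zeros. It was listed at 7.67, 1.42, 1.01 and 1.90 FPKM in control mice 1 to 4 and at 0, 0.160, 0.713 and 0 FPKM in TNFdARE mice 1 to 4 (log2 fold change -1.49, unadjusted p = 0.055, adjusted p = 0.86, limma). In the trafficking and fusion list 5 of 34 genes in the table were tested, all below 0. All 5 were also below 0 after quantile normalization and median-of-ratios scaling, but 2 of the 5 with sample weights. Fyco1 and Stx7 passed the filter through the control mice alone (means 1.89 and 1.32 FPKM, against 0.346 and 0.919 in TNFdARE mice). The list median of -0.49 was -0.14 with no filter on low values. The 5 tested included Rab5c of early endosomes (log2 fold change -0.45) and Rab27b of dense granule secretion (-0.62). No gene of the dense granule biogenesis list had a mean FPKM of 1, and 5 of its 16 genes were above 0 in any library. Of the regulators Lamtor1, which anchors the Ragulator complex to the lysosome, was tested (log2 fold change 1.08). It was listed at 11.6 FPKM in TNFdARE mouse 1 and at 2.03 FPKM or less elsewhere. Cst3 encodes cystatin C, the secreted inhibitor of cysteine cathepsins. Its values were 9.24, 9.50, 16.9 and 18.1 FPKM in control mice and 0, 19.2, 18.0 and 1.32 FPKM in TNFdARE mice, where TNFdARE mouse 2 was above all controls, mouse 3 just below the highest and mouse 4 below all, with mouse 1 listed at 0 (log2 fold change -1.34, adjusted p = 0.86, limma).

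**Figure D4:**
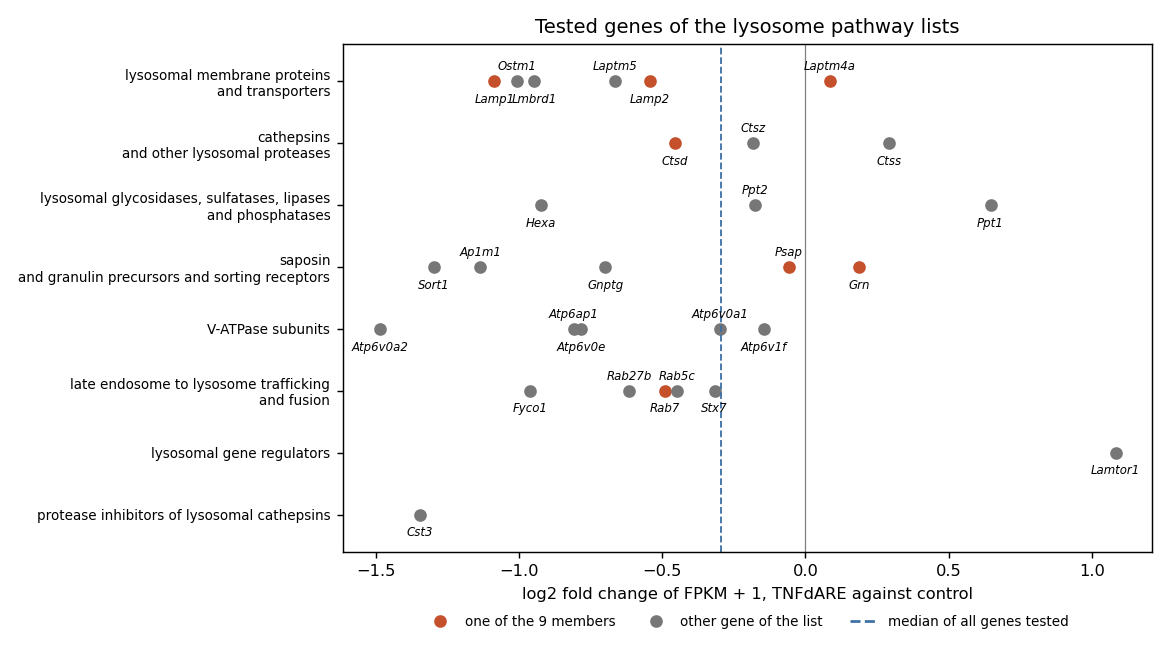
Log2 fold change of FPKM + 1 (TNFdARE against control) for the 29 tested genes of the lysosome lists, 1 row per list. Orange points are members of the 9 genes, grey points other genes of a list, and the dashed line is the median of all genes tested (-0.30). Of the 29 genes, 24 lie below 0.

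Several of these genes are also strongly expressed by macrophages and other leukocytes, so markers of those cells were read beside them. Of 14 monocyte and macrophage markers, 9 had a value above 0 in some library and 5 (Ccr2, Cd14, Fcgr1, Mpeg1 and Ms4a7) were listed at 0 in all 8. Their summed level was 32.3 to 54.4 FPKM in control mice and 18.1 to 37.4 FPKM in TNFdARE mice, with Lyz2 the largest part in each library. Lyz2 alone was at 30.8 to 50.3 FPKM in control mice and 11.9 to 35.8 FPKM in TNFdARE mice. Its log2 fold change was -0.94 (adjusted p = 0.86, limma, and exact permutation p = 0.057). Csf1r, the receptor that defines these cells, did not exceed 0.276 FPKM in any library. The other macrophage marker tested, Cd163, had a log2 fold change of 0.69 (adjusted p = 0.87, limma), with 11.2 of the summed 23.1 FPKM in TNFdARE mouse 1 and at most 1.51 FPKM elsewhere. Cd163 passed the filter through TNFdARE mice alone (mean 3.10 FPKM, against 0.598). Of 14 neutrophil markers 9, and of 14 B and T cell markers 10, were listed at 0 throughout, and the summed levels reached at most 10.3 and 25.3 FPKM. Erythroid markers summed to 788 to 2227 FPKM in control mice and to 6957, 1140, 2966 and 14700 FPKM in TNFdARE mice 1 to 4. They were thus highest in TNFdARE mice 1 and 4. In both, Rab7 was listed at 0, and Lamp1, Lamp2 and Cst3 were at 0 or below every control mouse. Rab7 was also at 0 in control mouse 1, which had the lowest erythroid sum (788 FPKM). In TNFdARE mouse 4 Laptm4a (5.27 FPKM), Grn (7.03), Ctsa (3.66) and Ctsb (1.09) were the highest of the 8 mice. TNFdARE mouse 1 listed them at 0. TNFdARE mouse 4 was also the only library with the neutrophil marker S100a9 above 0 (10.3 FPKM), and no other neutrophil marker was above 0 in it. The protease gene Ctss was highest there too (7.08 FPKM). Ctsd was inside the control range in TNFdARE mouse 4 (24.7) and lowest in TNFdARE mouse 1 (5.43), and Psap was inside it in both. Of the erythroid markers 6 of the 9 tested had an unadjusted p under 0.05 and were higher in TNFdARE mice, against 1.76% of all genes tested. Fech, among the 6, passed the filter through TNFdARE mice alone (mean 4.28 FPKM, against 0.522 in control mice), so its direction was partly set by the filter. None of the 6 passed adjustment (adjusted p = 0.86 for each, limma), and TNFdARE mouse 2 lay inside the control range for all 6. Of 19 platelet and megakaryocyte markers tested, 15 had a log2 fold change below 0, against 63% of all genes tested (medians -0.40 and -0.30). The 4 above 0 were Clec1b (0.76), Gp9 (0.74), Pf4 (0.52) and Gp1bb (0.03). None of the 19 had an unadjusted or adjusted p under 0.05 by limma. The groups did not overlap for Clec1b, higher in TNFdARE mice (exact permutation p = 0.029), as for 3.32% of all genes tested in either direction. The part of other cells, and of the platelet markers' values, in the lysosomal values was not tested. In bulk RNA, fewer cells of a type and less RNA per cell cannot be told apart.

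Sex was balanced between the groups, and an interaction of genotype and sex had an adjusted p under 0.05 for 0 of the 7 members and an unadjusted p under 0.05 for 0 of them (limma, smallest adjusted p = 0.92). Over all genes tested, 3.52% had an unadjusted p under 0.05 for this term. The estimated difference was lower in males than in females for all 7 members and for 56.6% of all genes tested, and TNFdARE mouse 1 is 1 of the 2 TNFdARE males. Ctsd averaged 20.3 FPKM in control and 21.8 FPKM in TNFdARE females, and 23.5 and 12.6 FPKM in males, with 2 mice behind each value.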

How the data were processed

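Per the labels and the paper's methods, RNA of washed platelets was extracted with TRIzol, treated with DNase and sequenced as 150 bp reads. The authors' processing notes name Cufflinks and mm10, which is the same assembly as GRCm38, and the methods cite work that aligned reads with GSNAP. The annotation and the handling of reads with several positions are not given in the sources used here. The deposited table holds 1 value for each gene in each mouse, read here as FPKM. The unit was inferred from Cufflinks and from column totals that differ (46047 to 99470). Each column was matched to a mouse by its library name, and 0 value columns were left unmapped. For genes with 1 transcript of at least 2000 bases, FPKM multiplied by length was searched for a step worth 1 fragment. At best 33.9% to 67.5% of the low values were whole multiples within 0.1, so reads were not recovered, the depth is unknown and no count model was used.

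The 1534 genes whose mean over the mice reached 1 FPKM were fitted as log2(FPKM + 1) in limma 3.58.1 (R 4.3.3), with trended empirical Bayes moderation and Benjamini-Hochberg adjustment over all genes tested. For the RNA libraries the study's methods give a threshold of 0.05 on p and refer to earlier work for the analysis. Single genes were also compared by a two-sided exact permutation test of group means, whose smallest p is 0.029. Fold changes on this scale understate changes of low genes. On simulated data for these 1534 genes, 61.5% of 200 genes changed by 3 on the log2 scale were recovered, with 7 false calls. The simulation drew independent normal noise for each gene, without listed zeros or differences between libraries. Its rates therefore need not hold for these data. Alternatives were other pseudocounts (0.1 and 5), filters and scalings, limma without a trend or with sample weights, sex or the replicate number as a term, and leaving out each mouse. Scaling to platelet markers and leaving out TNFdARE mice 1 and 4 were added after seeing the data. Transcripts of GENCODE M21 were compared with BLAST 2.17.0 at 95% identity over at least 150 bases. The members and lists were chosen with earlier results of these data known. Named genes are the members, the 2 highest tested genes of each list, list genes with an unadjusted p under 0.05, and the 3 genes most like each of the 2 highest members. Atp6v0a2, Atp6ap1, Ap1m1, Lmbrd1, Ostm1, Gnptg, Ppt1, Ctss, Fyco1, Stx7 and the single marker genes were named after their values were seen. Figures were drawn with matplotlib 3.10.9.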

Additional observations from a re-analysis of the deposited data

Results flagged for a closer look

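Of 43 groups of 4 mice examined, 5 had a mouse far from the others by Dixon's criterion, where chance gives about 2.15. TNFdARE mouse 1 had the fewest members above 0 (2, against 8 and 9), a gap of 0.857 of the range of its group. The same mouse was the 1 TNFdARE mouse listed at 0 for Ctsz, with a gap of 0.926. Control mouse 1 was highest in Sort1 (0.862), and control mouse 4 was lowest in Rab5c (0.907). Control mouse 3 was the only control mouse with Lamtor1 above 0 (gap 1 of the range). Values at 0 have no order, so the gaps of Ctsz and Lamtor1 depend on which libraries listed the transcript.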

How the results depend on the processing

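No member tested reached an unadjusted p under 0.05 under any of the alternatives run, and 0 genes of the table reached an adjusted p under 0.05 in any of them. Ctsd stayed below 0 in all 21 alternatives. With sample weights the log2 fold change was 0.048 for Lamp1, 0.28 for Lamp2, 0.037 for Rab7 and -0.21 for Grn. Without TNFdARE mice 1 and 4 it was 0.043 for Lamp1, 0.40 for Lamp2 and 0.30 for Rab7. Quantile normalization gave 0.041 for Lamp2 and 0.19 for Psap, median-of-ratios scaling gave 0.0013 for Psap, and scaling to platelet markers gave 0.046 for Psap. Pseudocounts of 0.1 and 5 kept every member's sign but moved Lamp1 to -1.90 and -0.57, Lamp2 to -1.32 and -0.17, Rab7 to -1.20 and -0.18, and Grn to 0.80 and 0.04. The causes were not tested. With 1 mouse left out, values ranged from -1.48 to -0.15 for Lamp1, -0.87 to 0.0063 for Lamp2, -0.46 to 0.66 for Laptm4a, -0.92 to -0.11 for Rab7, -0.68 to -0.01 for Ctsd, -0.22 to 0.12 for Psap and -0.33 to 0.69 for Grn.

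An unadjusted p under 0.05 was reached by 69 genes, by 36 of the 583 left when the mean had to reach 5 FPKM, and by 111 with sample weights. The count ranged from 46 to 76 with 1 mouse left out. Of these calls 27 were higher and 42 lower in TNFdARE mice, 34 and 25 after quantile normalization, and 74 and 37 with sample weights. The median log2 fold change of all genes, -0.30, became -0.06 after quantile normalization and -0.01 with sample weights. Of the list genes 1, Atp6v0a2 each time, had an unadjusted p under 0.05 without a trend, with no filter on low values and with a pseudocount of 0.1, and 0 or 1 with 1 mouse left out (1 without control mouse 3). The median of the other hydrolases, -0.17, was 0.74 without TNFdARE mice 1 and 4, and that of the precursors and sorting receptors, -0.70, was -1.90 with a pseudocount of 0.1. With 1 mouse left out these medians ranged from -0.60 to 0.31 and from -0.98 to -0.23. The ranges were -0.92 to -0.22 for the membrane proteins and -0.53 to 0.48 for the proteases. They were -1.24 to -0.07 for the V-ATPase and -1.03 to -0.28 for trafficking and fusion. The deviations of same-numbered mice correlated between -0.07 and 0.06, which cannot show whether any mice shared a litter or a preparation. Some control and TNFdARE library names share a number, not always under the same replicate number. What that number stands for is not given in the sources used here, and a pairing by it was not tested. With the replicate block 64 genes had an unadjusted p under 0.05, 21 of them higher, and no call of a member changed. The depth is unknown, so its part in the listed zeros was not tested.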
